A study of Homo sapiens with 8 samples.

Results

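UHRF1 depletion combined with the histone deacetylase inhibitor trichostatin A (TSA) was compared with the untreated control in DLD1 cells, a human colorectal cancer cell line of the CpG island methylator phenotype (CIMP), in which many promoter CpG islands are methylated. The comparison used 4 of the 8 arrays of the series, chosen by their labels: 2 arrays of UHRF1 depletion plus TSA, called the combination below, and 2 arrays of control siRNA without TSA. The combination cells were transfected with siUHRF1-1 or siUHRF1-2, which are different siRNAs against UHRF1, and after 48 h received 300 nM TSA for 24 h. The control cells received a control siRNA (siCONT) and, after the same 48 h, the solvent ethanol (mock) for 24 h. The remaining arrays, 2 of siCONT with TSA and 2 of UHRF1 depletion with mock, were used only to show what each treatment did alone. All samples came from this 1 line and were transiently transfected, and each UHRF1 siRNA was measured once per agent.

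UHRF1 binds hemimethylated CpG sites behind the replication fork and brings the maintenance methyltransferase DNMT1 to them, so that newly made DNA regains the methylation of its template. Histone deacetylases (HDACs) remove acetyl groups from histone tails and help to keep chromatin closed, and TSA blocks the zinc-dependent members of the family. In colorectal cancer cells, dense methylation of promoter CpG islands and low histone acetylation are both known marks of silenced genes, germline genes included. Cell division runs through waves of transcription: E2F factors turn on DNA replication genes as cells enter S phase, and the MuvB complex with B-MYB and FOXM1 turns on mitotic genes in G2 phase.

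RNA was measured on 1-colour Agilent arrays, and each level below is the log2 processed intensity minus the 75th percentile of its array, so that 0 is the intensity which 75% of the probes lie under. On each array 43.3% to 48.0% of 50599 probes exceeded background clearly, no spot was saturated, and all arrays shared 1 slide and 1 scan. The slide held mock arrays in one row and TSA arrays in the other, so row and TSA cannot be told apart. The arrays of a siCONT pair differed by about the noise between repeated spots (ratio of SDs 1.16 with mock and 1.06 with TSA). For the siRNA pairs this ratio was 12.7 and 10.4. The siCONT arrays of an agent were counted as 1 sample, and siCONT levels therefore carry no SD. No source states whether they came from separate cultures, and p-values measure only the spread between these samples. Calls came from limma over all probes tested, two-sided, and needed both an adjusted p (Benjamini-Hochberg) below 0.05 and at least a 2-fold change.

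UHRF1 was examined first, because it checks the labels. Its brighter probe (chr19:4962065-4962124, hg19) read 1.98 and 2.01 on the control arrays and −1.55 and −2.14 on the combination arrays. The combination level was 6.98% of control (log2 change −3.84, SE 0.36, limma adjusted p = 0.0074). With siUHRF1 alone the levels were 0.34 and −0.02, and with TSA alone they were 1.04 and 1.01, so both arrays of each single treatment lay between the groups compared. The difference from UHRF1 depletion alone passed the test (log2 −2.01, adjusted p = 0.013), and that from TSA alone did not (log2 −2.87, adjusted p = 0.0535). DNMT1 read 2.72 and 2.76 in the control and 1.51 and 1.41 in the combination (log2 change −1.28, SE 0.26, adjusted p = 0.0345). That call was lost without either combination array (adjusted p = 0.118 and 0.136). These were the 2 genes called among 21 tested genes of the DNA methylation machinery, both lower.

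Of 23734 probes tested, 3662 (15.4%) were called, 2312 of them higher in the combination (9.74%) and 1350 lower (5.69%). The called probes stood for 3251 genes. Changes of more than 4-fold were counted for 1637 probes in the higher and 343 in the lower direction, and changes of more than 16-fold for 366 and 7. The combination and control arrays overlapped for 1 probe called higher and for 0 called lower. The count was 1855 without the siUHRF1-1 array of the combination and 2136 without the siUHRF1-2 array.

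The split between directions depended on the scaling between arrays and on the filter. Of the called probes 63.1% were higher, and the median change of tested probes was −0.14. With arrays scaled to the median of all probes 40.7% were higher and the median change was −0.54, while with the 75th percentile of detected probes 77.7% were higher and the median was 0.10. Quantile normalization gave 62.8%, and the normexp background 48.9%. A probe that was dim in the control could be tested only if it was bright in the combination, so the higher calls among dim probes had to differ. Among the 20351 tested probes that were well above background on all 4 arrays, 857 were higher and 1196 lower.

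**Figure D1:**
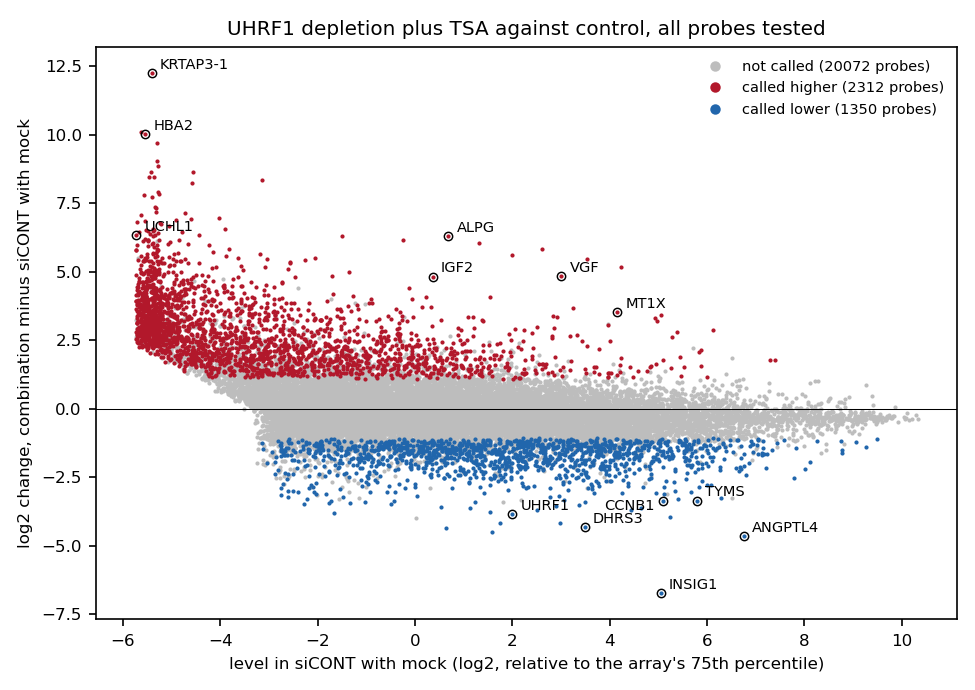
Change of each tested probe (log2, combination minus siCONT with mock, vertical axis) against its level in siCONT with mock (log2, with the array's 75th percentile at 0, horizontal axis). Grey points were not called, red points (2312) were called higher and blue points (1350) lower. The labelled genes INSIG1, ANGPTL4 and DHRS3 lie below −4.

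Genes were also described by pathway, with 1 probe a gene. Over all 17886 genes so tested, 10.4% were called higher and 5.80% lower. Over the 15434 of them above background on all 4 arrays, 4.57% were higher and 6.23% lower, and the median change was −0.21. Another 1960 were above background on both combination arrays but not on both control arrays, and 1160 of these were called. Such genes are described below as tested through the combination alone. Each list below is read against these shares.

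Mitotic genes were lower in the combination as a group. Of 24 cyclins, kinases and regulators that drive entry into mitosis, 19 were called lower and 0 higher, with a median change of −2.50. Of 24 mitotic kinesins and cytokinesis genes 18 were lower (median −2.02), and of 36 kinetochore and centromere genes 20 were lower (median −1.49). In each of these lists 0 members were higher, and all members were above background on the 4 arrays. The medians stayed below 0 under every scaling tried, between −2.90 and −1.93 for the cyclins and kinases. In a bulk sample, fewer cells in a stage of the cycle and less RNA per cell cannot be told apart.

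Cyclin B1, CCNB1, the partner of CDK1 at mitotic entry, read 5.08 and 5.09 in the control and 1.53 and 1.88 in the combination, or 9.63% of control (log2 change −3.38, SE 0.34, adjusted p = 0.00781). It read 4.89 and 4.43 with siUHRF1 alone and 3.53 and 3.53 with TSA alone, so the combination arrays were the lowest of all 8. Cyclin A2, CCNA2, read 3.02 and 3.09 against −0.42 and −0.15 (9.86% of control, adjusted p = 0.0154). The kinase PLK1, which acts from centrosome maturation to cytokinesis, read 1.94 and 1.87 against −1.27 and −0.88 (12.7% of control, adjusted p = 0.0114). AURKB, the kinase of the chromosomal passenger complex, read 1.31 and 1.37 against −1.68 and −1.36 (13.8% of control, adjusted p = 0.016). For these 4 genes the groups did not overlap, as for all 1350 probes called lower. Every single-treatment array lay between the groups or within 0.1 of the control.

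Motors and structural proteins of the spindle were lower as well. KIF20A, a kinesin of the central spindle needed for cytokinesis, read 1.54 and 1.52 in the control and −2.65 and −1.79 in the combination (7.43% of control, adjusted p = 0.0142). KIF2C, a kinesin that takes apart microtubules at kinetochores, read 5.37 and 5.44 against 2.17 and 2.07 (10.2% of control, adjusted p = 0.0138). SPAG5, the spindle protein astrin, read 5.15 and 5.10 against 1.90 and 2.13 (11.6% of control, adjusted p = 0.00945). HJURP, the chaperone that loads the centromeric histone CENPA, read 5.67 and 5.69 against 2.51 and 2.79 (12.2% of control, adjusted p = 0.00814). Both combination arrays lay below every other array for each of these 4 genes.

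Genes of mitotic exit formed a separate list. In the list of the anaphase-promoting complex, securin and their partners, 7 of 20 members were lower (median −0.82). CDC20, which activates that complex at anaphase, read 3.68 and 3.66 against 0.91 and 0.26 (11.8% of control, adjusted p = 0.0132), and UBE2C, its ubiquitin-conjugating enzyme, read 5.10 and 5.13 against 2.14 and 2.39 (13.8% of control, adjusted p = 0.0126). Among condensin and cohesin genes, which fold and hold chromatids, 7 of 18 were lower (median −1.09). The counts of these lists fell when 1 combination array was left out, which leaves 1 residual degree of freedom. Without the siUHRF1-1 combination array, 9 cyclins and kinases, 6 kinesin and cytokinesis genes, 7 kinetochore genes, 4 exit genes and 1 condensin or cohesin gene were called lower. Without the siUHRF1-2 array the numbers were 13, 9, 11, 4 and 1.

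Many mitotic genes carry the cell cycle homology region (CHR), TTTGAA, the element bound by MuvB. The promoters below were picked because they hold a match. In the longer window used for counting, CCNB1, CCNA2, KIF20A and KIF2C had no match, while PLK1, SPAG5, HJURP and CDC20 had one or more. The sequences are from RefSeq (GRCh38.p14). Each is the 70 bases before the annotated start, 5′ to 3′ on the strand of the gene, with a match to TTTGAA or its reverse complement in capitals:
PLK1 (chr16:23678819-23678888, + strand): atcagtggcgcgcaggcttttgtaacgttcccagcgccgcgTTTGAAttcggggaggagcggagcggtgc
CCNB2 (chr15:59105076-59105145, + strand): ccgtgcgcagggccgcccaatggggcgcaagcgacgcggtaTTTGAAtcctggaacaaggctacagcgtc
BUB1B (chr15:40160999-40161068, + strand): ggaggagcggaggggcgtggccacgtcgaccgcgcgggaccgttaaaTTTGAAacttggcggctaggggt
KIF11 (chr10:92593060-92593129, + strand): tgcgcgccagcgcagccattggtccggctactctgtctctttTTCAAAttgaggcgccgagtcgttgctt
KIF23 (chr15:69414279-69414348, + strand): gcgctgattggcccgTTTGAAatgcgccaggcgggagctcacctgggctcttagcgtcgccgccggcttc
KIF4A (chrX:70290034-70290103, + strand): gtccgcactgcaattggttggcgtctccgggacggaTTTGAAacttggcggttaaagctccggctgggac
PRC1 (chr15:90994536-90994605, - strand): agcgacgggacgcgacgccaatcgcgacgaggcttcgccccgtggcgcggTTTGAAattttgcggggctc
HMMR (chr5:163460562-163460631, + strand): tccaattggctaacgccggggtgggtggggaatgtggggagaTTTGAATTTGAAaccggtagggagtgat

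All 8 genes were called lower in the combination. CCNB2, a second mitotic B cyclin, read 6.04 and 5.95 in the control and 3.18 and 3.26 in the combination (14.6% of control), and HMMR, a microtubule protein of the spindle pole, read 4.63 and 4.72 against 1.56 and 2.06 (13.7% of control). PRC1, which bundles microtubules of the central spindle, reached 19.8% of control, KIF23, a kinesin of the same structure, 22%, and BUB1B, a spindle checkpoint protein, 18%. KIF11, which pushes spindle poles apart, reached 26.0%, and KIF4A, which shortens the central spindle, 32.3%. The adjusted p of these 7 genes lay between 0.0104 for HMMR and 0.0438 for KIF4A. The promoter window used for counting ran from 250 bases before the start to 50 after it and was searched on both strands. TTTGAA was present in 14 of the 16 kinesin and cytokinesis genes called lower that had 1 promoter in the table, in 9 of 16 kinetochore genes and in 5 of 10 cyclins and kinases. Over all members of these lists with 1 promoter, called or not, it was present in 19 of 21, 12 of 26 and 7 of 12. It was present in 16% of all 22114 promoters in the table. A match describes the letters in the window and is not evidence of binding.

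DNA replication genes were lower too. Of 28 licensing and origin firing genes 15 were lower and 0 higher, and the 27 above background on all 4 arrays had a median change of −1.60. Of 29 replication fork and polymerase genes 14 were lower (median −1.34), of 25 genes for making deoxynucleotides 10 were lower, and of 32 homologous recombination and Fanconi genes 14 were lower. In each of these lists 0 were higher. In the list of replication fork and polymerases 0 genes were called without the siUHRF1-1 combination array and 1 without the siUHRF1-2 array, in fits with 1 residual degree of freedom, while the median change was −1.26 and −1.24. In the other 3 lists 3, 2 and 4 genes were called without the former array and 5, 4 and 4 without the latter.

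MCM7, a subunit of the replicative helicase, read 7.19 and 7.21 in the control and 5.19 and 4.92 in the combination, or 22.5% of control (adjusted p = 0.012). Helicase subunit MCM6 read 4.12 and 4.11 against 2.46 and 2.27 (29.8% of control, adjusted p = 0.0172), and ORC6, a subunit of the complex that marks origins, read 0.31 and 0.38 against −1.64 and −1.71 (24.7% of control, adjusted p = 0.0139). CDC25A, the phosphatase that activates CDK2, read 1.78 and 1.74 against −1.0 and −0.63 (16.8% of control, adjusted p = 0.0109). MCM6 and MCM7 stayed within 0.4 of the control with siUHRF1 alone and read between 2.98 and 3.0 and between 5.99 and 6.02 with TSA alone. The E2F site was searched as TTTNGCGC on both strands. It was present in 7 of the 9 licensing genes called lower that had 1 promoter, in 5 of 12 such fork genes and in 1.76% of all promoters. Called or not, 9 of 17 licensing promoters and 6 of 20 fork promoters held it. Stretches of 3 of these promoters, from RefSeq (GRCh38.p14) and ending at the base before the start, show where it lies, with the matches in capitals:
MCM6 (chr2:135876444-135876603, - strand): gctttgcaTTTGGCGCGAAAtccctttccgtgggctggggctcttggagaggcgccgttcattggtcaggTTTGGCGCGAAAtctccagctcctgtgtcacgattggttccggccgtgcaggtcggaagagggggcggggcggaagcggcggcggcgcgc
ORC6 (chr16:46689529-46689658, + strand): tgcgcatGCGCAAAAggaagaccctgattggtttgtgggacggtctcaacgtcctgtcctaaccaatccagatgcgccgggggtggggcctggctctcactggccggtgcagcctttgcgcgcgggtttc
CDC25A (chr3:48188418-48188477, - strand): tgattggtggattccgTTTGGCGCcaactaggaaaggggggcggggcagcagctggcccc

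TYMS, thymidylate synthase, which makes the DNA precursor dTMP, showed one of the steepest decreases of the replication genes. It read 5.82 and 5.77 in the control, 5.93 and 5.80 with siUHRF1 alone, 4.44 and 4.40 with TSA alone, and 2.25 and 2.64 in the combination. The combination level was 9.83% of control (log2 change −3.35, SE 0.30, adjusted p = 0.00673), and it differed from UHRF1 depletion alone (log2 −3.42, adjusted p = 0.0028) but not by the test from TSA alone (log2 −1.97, adjusted p = 0.0789). RAD54L, a motor of homologous recombination, read 3.49 and 3.51 against 0.28 and −0.05 (9.57% of control, adjusted p = 0.0114). PIF1, a helicase that unwinds G-quadruplexes, read 2.53 and 2.49 against −1.26 and −1.12 (7.71% of control, adjusted p = 0.00668). The groups did not overlap for any of these genes, as for all 1350 probes called lower.

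The regulators of this transcription were listed apart. Of 20 E2F, MYB and pocket protein genes 3 were lower and 0 higher (median −0.73), and 0 and 2 were lower without the siUHRF1-1 and the siUHRF1-2 array. The largest change in the list was that of LIN9, a MuvB subunit, which read 2.25 and 2.28 in the control and 0.17 and 0.16 in the combination (23.4% of control, adjusted p = 0.0144, and 0.0519 without the siUHRF1-1 array). MYB, a transcription factor of intestinal progenitors and of leukaemia, is not a member of that list and was named for the size of its change. It read 4.44 and 4.45 against 0.74 and 0.81 (7.85% of control, adjusted p = 0.00677), and with TSA alone it already read 1.56 and 1.48. Among 18 CDK inhibitors and G1 cyclins 1 was higher and 1 lower. CCND2, a G1 cyclin, was below background in the control and read −1.29 and −2.29 in the combination, at least 3.04-fold higher (adjusted p = 0.0127). It was tested through the combination alone, and with the normexp background its adjusted p was 0.105. The lower member was CDK2, the kinase of the G1 to S transition, at 27.9% of control (adjusted p = 0.024), a call lost without either combination array (adjusted p = 0.0509 and 0.0795).

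Histone genes were lower as well. Of 53 replication-dependent histone genes, whose mRNAs are made in S phase, 23 were lower and 1 higher, and the 51 on all 4 arrays had a median change of −1.02. The same 51 had a median of −1.30 with TSA alone and −0.47 with siUHRF1 alone. Linker histone H1-5 read 2.30 and 2.25 in the control, −0.39 and −0.42 with TSA alone, and −0.47 and −0.71 in the combination (13.7% of control, adjusted p = 0.0094). H2AC16 read 0.00 and 0.09 against −2.96 and −3.27 (11.2% of control, adjusted p = 0.00807). The member called higher was H1-1, a linker histone, which was below background in the control and tested through the combination alone. It read 0.22 and −1.43 with siUHRF1 alone, and −0.62 and −1.58 in the combination (at least 4.91-fold, adjusted p = 0.0286). That call was lost without the siUHRF1-1 combination array and with the normexp background (adjusted p = 0.153). Without the siUHRF1-1 combination array 5 histone genes were called lower, and 6 without the siUHRF1-2 array. Of 10 variant histone genes, which are made outside S phase too, 2 were lower and 0 higher, and 1 was lower without either combination array. Many histone genes are near copies of each other, so their probes may read more than 1 gene.

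**Figure D2:**
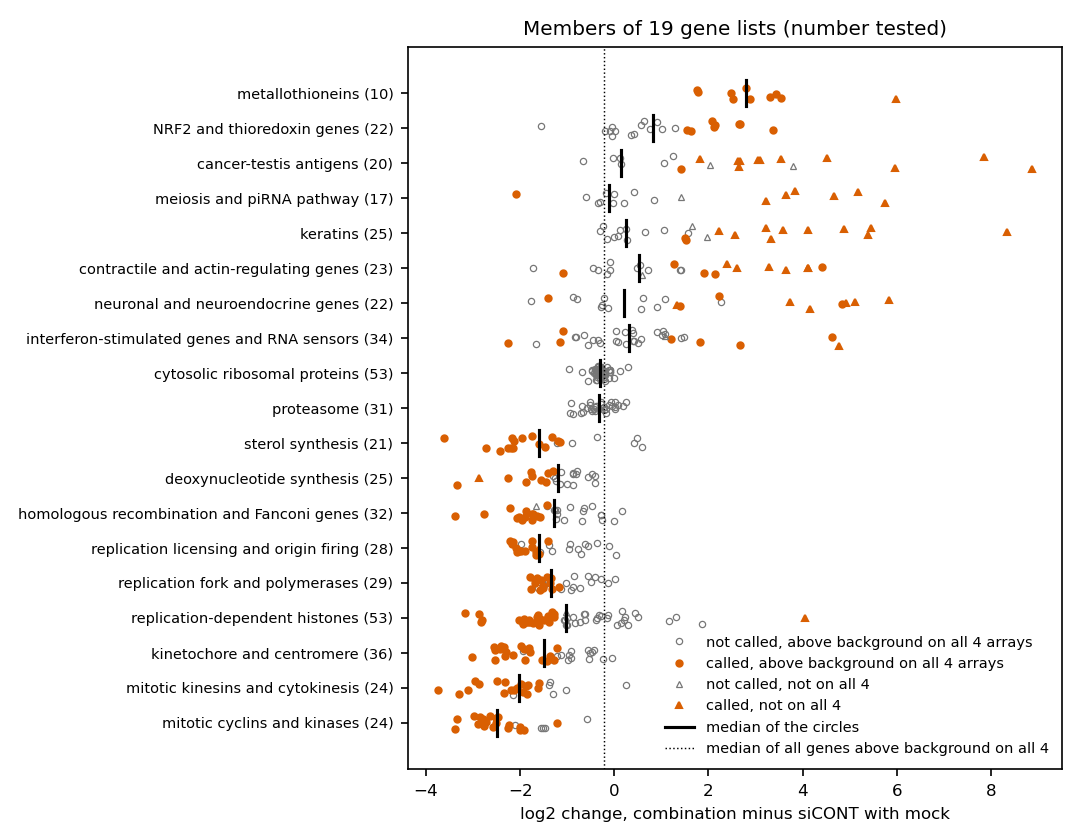
Change of each tested member of 19 gene lists (log2, combination minus siCONT with mock, horizontal axis). Orange symbols were called, circles were above background on all 4 arrays, triangles were not, black bars are the medians of the circles and the dotted line is the median of all genes (−0.21). The cell cycle lists and sterol synthesis lie to the left of the dotted line, metallothioneins to the right, and ribosomal proteins and the proteasome on it.

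Cholesterol synthesis was lower at most steps. Of 21 tested enzymes of the sterol pathway 15 were lower and 0 higher, with a median change of −1.60. The same 21 had a median of −1.55 with TSA alone and −0.33 with siUHRF1 alone. SREBP factors, which are released when sterols are low, drive these genes, and INSIG1 holds them back in the endoplasmic reticulum. INSIG1 read 5.03 and 5.06 in the control, 3.52 and 2.00 with siUHRF1 alone, −0.47 and −0.61 with TSA alone, and −0.20 and −3.15 in the combination. The combination level was 0.949% of control (log2 change −6.72, SE 1.28, adjusted p = 0.0293), and the siRNAs lay almost 3 log2 units apart, with the siUHRF1-1 array above the arrays of TSA alone.

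Among the enzymes, MSMO1, a sterol methyl oxidase, read 1.14 and 1.13 in the control and −3.0 and −1.98 in the combination (8.11% of control, adjusted p = 0.0143). Squalene epoxidase, SQLE, read 3.79 and 3.74 against 0.96 and 1.14 (15.2% of control, adjusted p = 0.0077). For these genes the arrays of both single treatments lay between the groups. SREBF1, a gene for one of the SREBP factors, reached 31.7% of control (adjusted p = 0.0195). ABCA1, which exports cholesterol, was called in the other direction, from below background in the control to −2.11 and −1.52 (at least 2.99-fold, adjusted p = 0.0242), and read −1.51 and −1.69 with siUHRF1 alone. It was tested through the combination alone. With the normexp background 0 genes of SREBP control and LDL uptake were called higher. The sterol regulatory element, searched as TCACNCCAC on both strands, was in 0 of the 12 sterol promoters matched and in 1.16% of all promoters, which says only that these letters were not in the window. Without the siUHRF1-1 combination array 7 sterol genes were called lower, and 5 without the siUHRF1-2 array.

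Other lipid genes were called in both directions, with medians below 0 under every scaling tried. In fatty acid synthesis 2 of 12 were lower and 1 higher (median −1.055). Among PPAR targets and ketogenesis genes 3 of 17 were lower and 1 higher (median −0.84). Without the siUHRF1-1 combination array 0 fatty acid genes and 2 PPAR targets were lower, and without the siUHRF1-2 array 2 and 1. ANGPTL4, a PPAR target that inhibits lipoprotein lipase, read 6.75 and 6.76 in the control, 5.66 and 3.58 with siUHRF1 alone, 1.92 and 1.90 with TSA alone, and 2.44 and 1.80 in the combination (4.02% of control, adjusted p = 0.0277, and 0.0566 without the siUHRF1-2 array). ACSL5, which activates fatty acids in enterocytes, changed by −2.32 on the log2 scale (adjusted p = 0.010). CREB3L3, a hepatic and intestinal transcription factor of lipid metabolism, was below background in the control and read 0.25 and −0.54 in the combination (at least 9.54-fold, adjusted p = 0.0093). Of 31 glycolysis and hypoxia genes 3 were lower and 1 higher, while 13 were lower in a fit without either array of UHRF1 depletion alone. The 29 glycolysis and hypoxia genes on all 4 arrays had a median change of −1.15, and −1.115 with TSA alone. PFKFB4, which sets fructose 2,6-bisphosphate, read 3.39 and 3.35 against −0.26 and −0.02 (8.77% of control, adjusted p = 0.0122).

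Genes known to be silenced by promoter methylation were examined next. The list held the 9 silenced genes that the study had chosen in these cells, so that its direction is not independent evidence. UCHL1 and DKK1 were called higher, but both were tested through the combination alone and had to differ. NEURL1 was tested and not called (log2 change 0.58, adjusted p = 0.218). Another 5 were dim on every array of both groups, and TIMP3 was above background on 1 combination array. UCHL1, a ubiquitin hydrolase abundant in neurons, read −5.70 and −5.75 in the control, −6.07 and −5.77 with siUHRF1 alone, −6.13 and −6.02 with TSA alone, and 0.70 and 0.51 in the combination. It was above background on the combination arrays alone and was at least 16-fold higher than in the control (adjusted p = 0.00431). It was at least 20.3-fold higher than with TSA alone (adjusted p = 0.0196) and at least 18.4-fold higher than with UHRF1 depletion alone (adjusted p = 0.00196).

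DKK1, a secreted Wnt antagonist, followed the same pattern with a wider gap between siRNAs. It was below background on all 6 other arrays and read 1.21 with siUHRF1-1 and −0.84 with siUHRF1-2 in the combination. It was at least 12-fold higher than in the control (adjusted p = 0.0206), and with the normexp background its adjusted p was 0.0580. The difference from TSA alone did not pass the test (adjusted p = 0.071). SFRP1, SFRP2 and SFRP5, secreted Frizzled-related proteins, and GATA4 and GATA5, transcription factors of the gut, stayed dim on all 8 arrays. The study assessed silenced genes by RT-PCR, another measure of RNA, and reported that the combination restored them in DLD1. The array levels were not compared with that assay, and a dim probe has no measured level. TIMP3, a metalloproteinase inhibitor, read 0.49 with siUHRF1-1 and −3.46 with siUHRF1-2 and was not tested.

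Of 7 CIMP marker genes, which are used to class tumours by promoter methylation, 4 were tested and 3 were called higher. Of these 3, CACNA1G and SOCS1 were tested through the combination alone and had to differ. Of the 2 members above background on all 4 arrays 1 was called. IGF2, an imprinted growth factor, read 0.33 and 0.39 in the control, 0.89 and 1.03 with siUHRF1 alone, 2.47 and 2.48 with TSA alone, and 5.24 and 5.13 in the combination. It rose 28.3-fold (log2 change 4.83, SE 0.26, adjusted p = 0.00492) and was above TSA alone (log2 2.71, adjusted p = 0.0355) and above UHRF1 depletion alone (log2 4.22, adjusted p = 0.00224). CACNA1G, a T-type calcium channel, was below background in the control and read −0.62 and −0.01 (at least 8.48-fold, adjusted p = 0.00911), with −1.86 and −1.79 under TSA alone. SOCS1, an inhibitor of cytokine signalling, reached −1.03 and −0.87 from below background (at least 5.44-fold, adjusted p = 0.0102, a change of under 2-fold with the normexp background). CDKN2A, which encodes p16, read −0.01 and −0.17 against 0.24 and 0.22 and was not called (log2 change 0.32, adjusted p = 0.49, and −0.08 under median scaling). RUNX3 was above background on 1 combination array, CRABP1 on 1 array of each group, and NEUROG1 on 0.

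The promoters of UCHL1 and DKK1 are CpG-rich, and those of DHRS2 and ALPG, which also rose steeply and are described next, are not. They are printed to show that difference. Each sequence is the 250 bases before the start from RefSeq (GRCh38.p14), 5′ to 3′, with every CpG in capitals. UCHL1 has 20 CpG sites, DKK1 18, DHRS2 0 and ALPG 2:
UCHL1 (chr4:41256678-41256927, + strand): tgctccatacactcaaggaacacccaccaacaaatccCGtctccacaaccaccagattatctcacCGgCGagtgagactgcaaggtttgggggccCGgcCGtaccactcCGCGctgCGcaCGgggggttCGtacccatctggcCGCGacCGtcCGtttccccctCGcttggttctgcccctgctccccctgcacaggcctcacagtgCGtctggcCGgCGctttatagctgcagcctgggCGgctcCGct
DKK1 (chr10:52314031-52314280, + strand): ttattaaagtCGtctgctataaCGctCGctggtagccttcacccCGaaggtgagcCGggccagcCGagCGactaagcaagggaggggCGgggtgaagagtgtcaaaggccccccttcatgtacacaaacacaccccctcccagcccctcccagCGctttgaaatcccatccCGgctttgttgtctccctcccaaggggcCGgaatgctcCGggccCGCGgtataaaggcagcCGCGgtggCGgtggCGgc
DHRS2 (chr14:23629865-23630114, + strand): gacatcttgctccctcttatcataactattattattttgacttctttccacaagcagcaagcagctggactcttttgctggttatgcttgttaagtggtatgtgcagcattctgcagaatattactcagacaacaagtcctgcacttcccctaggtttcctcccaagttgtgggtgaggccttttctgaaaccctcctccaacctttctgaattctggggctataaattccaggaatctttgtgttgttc
ALPG (chr2:232406594-232406843, + strand): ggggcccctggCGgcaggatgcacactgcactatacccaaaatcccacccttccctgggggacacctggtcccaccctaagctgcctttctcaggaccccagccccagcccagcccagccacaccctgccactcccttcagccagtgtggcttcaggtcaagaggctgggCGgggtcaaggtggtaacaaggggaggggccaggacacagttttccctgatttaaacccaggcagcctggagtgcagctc

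**Figure D3:**
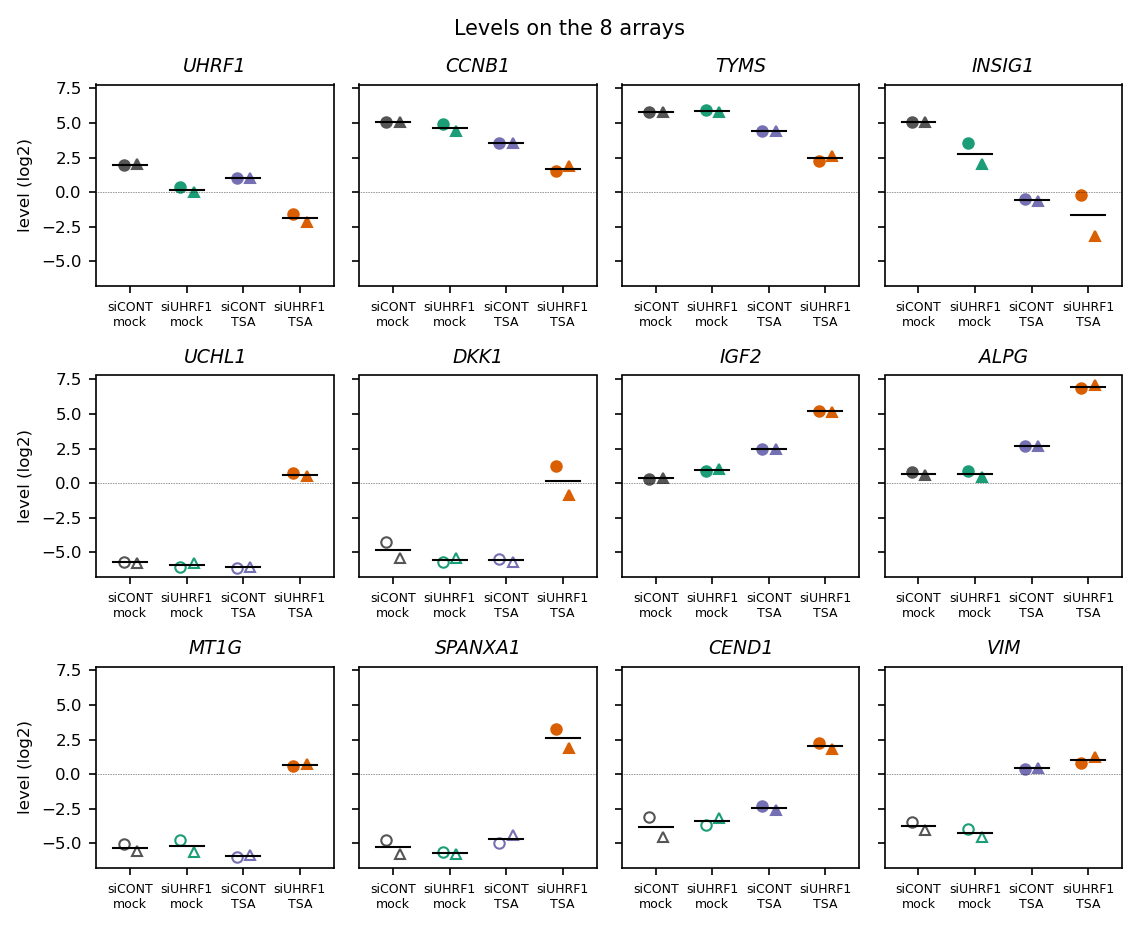
Level (log2, with the array's 75th percentile at 0, vertical axis) of 12 genes on the 8 arrays, by group. Circles are array 1 or siUHRF1-1, triangles array 2 or siUHRF1-2, open symbols mark groups in which no array was well above background, and lines are group means. CCNB1 and TYMS were lowest in the combination, UCHL1, DKK1, MT1G and SPANXA1 were above background in the combination alone, and VIM was above background with TSA alone as well.

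A total of 1320 probes, for 1219 genes, were lit: they were above background on both combination arrays and on no control array, and were called. They came from 1950 probes with that background pattern. Of the lit probes 435 were dim on both arrays of TSA alone, 855 on both arrays of UHRF1 depletion alone, and 331 on all arrays of both single treatments. Bounds are given for these genes, because a dim probe has no measured level. Lit probes were tested through the combination alone and had to differ, so their adjusted p against the control is not independent support. The largest was that of KRTAP3-1, a keratin-associated protein of hair, which read 6.60 and 7.07 in the combination and was at least 1202-fold higher (adjusted p = 0.00431). With TSA alone it read 4.22 and 4.21, and its second probe rose as well.

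Most of the other steep rises were also present with TSA alone. HBA2, an alpha globin with a near-identical neighbour, read 4.16 and 4.79 in the combination and 2.02 and 2.03 with TSA alone, at least 234-fold above the control (adjusted p = 0.00431). MMP1, an interstitial collagenase, read 3.27 and 4.06 in the combination and 1.49 and 1.51 with TSA alone (at least 134-fold, adjusted p = 0.00529). NTS, the gut peptide neurotensin, read 1.53 with siUHRF1-1 and 4.90 with siUHRF1-2 (at least 97.6-fold, adjusted p = 0.0169) and 0.92 and 1.07 with TSA alone. PI3, the epithelial protease inhibitor elafin, read 2.83 and 2.50 against 2.63 and 2.67 with TSA alone (at least 66.6-fold above the control, adjusted p = 0.00492).

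DHRS2 and TKTL1 rose above both single treatments. DHRS2, a mitochondrial short-chain dehydrogenase, read −2.96 and −3.27 with siUHRF1 alone, −0.52 and −0.54 with TSA alone, and 2.98 and 3.16 in the combination. It was at least 88.6-fold above the control (adjusted p = 0.00431), and it was also above TSA alone (log2 3.6, adjusted p = 0.0313) and UHRF1 depletion alone (adjusted p = 0.00196). TKTL1, a transketolase-like protein of the X chromosome, read 0.62 and −0.27 with siUHRF1 alone and 2.39 and 3.45 in the combination (at least 79.7-fold above the control, adjusted p = 0.00605). It was above background on 1 of the 2 arrays of TSA alone, and the difference passed the test (adjusted p = 0.0341). Calls against TSA alone, for these and all other genes named, depended on the scaling. The 165 probes so called became 2 under median scaling and 2 under quantile normalization.

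In the opposite direction 113 probes, for 109 genes, were extinguished, from 317 above background on both control arrays and on no combination array. These 113 probes were tested through the control alone and likewise had to differ. Of these, 44 were still above background on both arrays of TSA alone and 89 on both arrays of UHRF1 depletion alone. A second UHRF1 probe was among them, at least 8.02-fold lower. ARSL, an arylsulfatase, read −0.99 and −0.94 in the control and was at least 5.71-fold lower (adjusted p = 0.0116), and it was below background with TSA alone too. For ATXN7L1, SULT1C2, SANBR and ARHGEF39, other tested probes of the gene were not called, so that their bounds (8.68-fold, 6.12-fold, 5.44-fold and 4.33-fold) hold for 1 probe each. The call of ARHGEF39 was lost without either combination array (adjusted p = 0.0659 and 0.0553) and that of SULT1C2 without the siUHRF1-1 array (adjusted p = 0.0544).

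Among probes bright enough to be measured in both groups, the largest rises were those of placental alkaline phosphatases and SNAR RNAs. ALPG, the germ cell enzyme, read 0.80 and 0.56 in the control, 0.85 and 0.41 with siUHRF1 alone, 2.71 and 2.71 with TSA alone, and 6.83 and 7.11 in the combination. It rose 78.3-fold (log2 change 6.29, SE 0.32, adjusted p = 0.0048) and was above TSA alone by 4.26 on the log2 scale (adjusted p = 0.0313). ALPP, the placental enzyme, rose 78.5-fold (adjusted p = 0.00529), but its 4.39 and 5.18 were close to the 3.88 and 3.88 of TSA alone (adjusted p = 0.398). The coding sequences of ALPP and ALPG are near copies, so each probe may read both. ALPI, the intestinal enzyme used as a differentiation marker, was dim on all 8 arrays.

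SNAR-F, a small noncoding RNA of chromosome 19 that binds the nuclear factor NF90, read −0.13 and −0.35 in the control and 5.23 and 6.57 in the combination (70.6-fold, adjusted p = 0.0152), with 5.06 and 4.97 under TSA alone. Another 5 SNAR genes were among the 12 largest rises, but the family consists of near-identical copies that these probes cannot separate. CRYM, a thyroid hormone binding protein, rose 45.8-fold (adjusted p = 0.00856), PRPH, the neuronal filament peripherin, 43.1-fold (adjusted p = 0.00961), and EPPK1, the epithelial plakin epiplakin, 40.9-fold (adjusted p = 0.00529). KCNJ8, a potassium channel subunit, read −2.47 and −2.66 against 2.35 and 3.18 (40.1-fold, adjusted p = 0.0298, 0.0597 without the siUHRF1-2 array).

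INSIG1 and ANGPTL4 were among the largest decreases of measured probes. DHRS3, a retinaldehyde reductase induced by retinoic acid, read 3.46 and 3.50 in the control and −0.80 and −0.89 in the combination (5.00% of control, adjusted p = 0.00529), and 0.05 and 0.08 with TSA alone. BHLHE40, a clock and hypoxia transcription factor, read 1.68 and 1.81 against −3.07 and −1.77 (5.57% of control, adjusted p = 0.036, 0.0761 without the siUHRF1-1 array). 1 probe of AHNAK, a giant scaffold protein, fell to 6.43% of control (adjusted p = 0.00936), while the other AHNAK probes changed by −0.05 and −0.24 and were not called. The gene as a whole is therefore unsettled.

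Metallothioneins, small cysteine-rich proteins that bind zinc and copper, rose together: 10 of 10 tested members were higher. The 9 that were above background on all 4 arrays had a median change of 2.79, and the same 9 had 2.10 with TSA alone and 0.36 with siUHRF1 alone. MT1X read 4.19 and 4.12 in the control, 6.91 and 6.87 with TSA alone, and 7.85 and 7.53 in the combination (11.6-fold, adjusted p = 0.00637). MT1G, a family member often methylated in tumours, was below background on 6 arrays and read 0.62 and 0.75 in the combination. It was at least 16.9-fold above the control (adjusted p = 0.00529) and at least 21.4-fold above TSA alone (adjusted p = 0.0313). MT2A rose least, from 7.28 and 7.31 to 9.12 and 8.99 (3.40-fold, adjusted p = 0.0191). The genes lie side by side on chromosome 16 and are alike in sequence, so probes may read neighbours.

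Targets of NRF2, the factor that turns on antioxidant genes, rose in part. Of 22 tested 8 were higher and 0 lower, with a median of 0.83, and the same 22 had a median of 0.86 with TSA alone. HMOX1, haem oxygenase, read 2.90 and 2.92 in the control, 3.15 and 3.77 with siUHRF1 alone, 3.28 and 3.28 with TSA alone, and 6.69 and 5.86 in the combination (10.3-fold, adjusted p = 0.0142). Its difference from TSA alone was 2.99 on the log2 scale (adjusted p = 0.0839). SRXN1, a sulfiredoxin, rose 6.25-fold (adjusted p = 0.0091), and FTL, the ferritin light chain, 4.43-fold (adjusted p = 0.0111). Their levels with TSA alone, 6.11 and 6.09 for SRXN1 and 8.0 and 8.01 for FTL, lay within 0.5 of the combination. Without the siUHRF1-1 combination array 3 members were called, and 4 without the siUHRF1-2 array.

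Germline genes were mostly dim in the control. Of 42 cancer-testis genes on the array 20 were dim in both groups and 20 were tested, 13 of them because they were bright in the combination alone. Of the 20, 12 were called higher and 0 lower, but 11 of these 12 belong to the 13 and had to differ. Of the 7 that were above background on all 4 arrays 1 was called. With the normexp background 4 of the 20 were called. SPANXA1, a sperm protein of the X chromosome, was below background on 6 arrays and read 3.28 and 1.90 in the combination, at least 63.3-fold above the control (adjusted p = 0.00533) and at least 80.2-fold above TSA alone (adjusted p = 0.0313).

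MAGEA9, an X-linked antigen, read −0.18 and −1.89 with siUHRF1 alone and 0.58 and −0.08 in the combination, and was below background with TSA alone (at least 12.5-fold above the control, adjusted p = 0.0113). CTAG2, which encodes the antigen LAGE-1, read 1.07 and −0.03 with siUHRF1 alone and −0.67 and −0.83 in the combination. SPANXN3 instead was above background with TSA alone (−0.20 and −0.28) and read 0.61 and 0.57 in the combination. These families hold near-identical members, so a probe may read several. Among 45 meiosis and piRNA genes on the array 17 were tested, 6 were higher and 1 lower, and the 6 were among the 7 tested through the combination alone. MEI1, needed for meiotic double-strand breaks, read −1.97 and −2.45 with siUHRF1 alone, −1.51 and −1.26 with TSA alone, and 0.05 and 0.83 in the combination (at least 14.3-fold, adjusted p = 0.00536). GTSF1, a piRNA pathway factor, was dim with TSA alone and read 0.96 and −0.27 in the combination (at least 13.3-fold, adjusted p = 0.0122).

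Genes of other tissues were often dim in the control. Of 25 keratin genes tested 12 were higher and 0 lower, 10 of them among the 12 tested through the combination alone, and 2 of the 13 on all 4 arrays were called. KRT14, a keratin of basal epidermis, was below background on 6 arrays and read −1.82 and −2.0 in the combination (at least 2.80-fold, adjusted p = 0.00598), above TSA alone as well (adjusted p = 0.0313). Of 23 contractile genes 10 were higher and 1 lower, 6 of the 10 among 7 tested through the combination alone, and 4 of the 16 on all 4 arrays were higher. TNNT1, a slow muscle troponin, read −0.06 and −0.20 in the control, 3.96 and 3.92 with TSA alone, and 4.37 and 4.19 in the combination (21.2-fold, adjusted p = 0.00605). MYL9, a smooth muscle myosin light chain, was at least 6.47-fold higher (adjusted p = 0.00529).

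Of 22 neuronal and neuroendocrine genes 9 were higher and 1 lower. VGF, a neuropeptide precursor, read 3.01 and 2.99 in the control, 7.17 and 7.08 with TSA alone, and 8.51 and 7.16 in the combination (28.5-fold, adjusted p = 0.0115). CEND1, a protein of differentiating neurons, read −2.31 and −2.56 with TSA alone and 2.23 and 1.79 in the combination (at least 38.8-fold above the control, adjusted p = 0.00529, and above TSA alone, adjusted p = 0.0313). CHGA, the secretory granule protein chromogranin A, was below background on 6 arrays and read −0.07 and −1.01 (at least 7.25-fold, adjusted p = 0.00663). Of these 22 genes 6 were tested through the combination alone and all 6 were called, against 3 higher of the 16 on all 4 arrays.

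Of 12 tested genes of epithelial-mesenchymal transition 6 were higher and 0 lower, 5 of them among 8 tested through the combination alone. That is near the share over all genes, 1160 called of 1960 so tested. VIM, vimentin, the intermediate filament of mesenchymal cells, was below background in the control and read 0.41 and 0.45 with TSA alone and 0.81 and 1.21 in the combination (at least 21.2-fold, adjusted p = 0.00583). MMP9, a gelatinase, was at least 12.7-fold higher (adjusted p = 0.00529). S100A4, a calcium-binding protein of motile cells, read 1.08 and 1.05 in the control, 5.19 and 4.59 with siUHRF1 alone, and 3.41 and 3.75 in the combination (5.72-fold, adjusted p = 0.0155), below UHRF1 depletion alone (log2 −1.31, adjusted p = 0.0386).

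Markers of cells that a pure line should lack were measured beside these genes. All 8 epithelial markers were above background in both groups, and their summed linear level was 1900 to 1930 in the control and 1740 to 2040 in the combination. Of 6 leukocyte markers 2 were above background in the control and 3 in the combination, with sums of 0.797 to 0.831 and 1.30 to 2.66. Of 6 endothelial markers 0 and 2 were (sums 0.211 to 0.242 and 1.66 to 1.77, and 1.00 to 1.01 with TSA alone), and of 6 fibroblast markers 0 and 1 (sums 0.218 to 0.230 and 0.666 to 1.34). VWF of endothelium and COL1A1 of fibroblasts were called higher, whereas PECAM1, KDR, COL1A2, COL3A1, PTPRC and CD3E were not above background on both arrays of either group. The part of other cells in the results was not tested.

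Interferon-stimulated genes and RNA sensors moved in both directions, with 5 of 34 tested members higher and 3 lower. IFI27, a mitochondrial interferon-stimulated protein, read −2.37 and −3.10 in the control, 0.18 and 0.05 with siUHRF1 alone, −1.47 and −1.54 with TSA alone, and 1.34 and 2.46 in the combination (24.8-fold, adjusted p = 0.00912). BST2, tetherin, which holds budding virus at the cell surface, was at least 6.26-fold higher (adjusted p = 0.0103), and IFI6 rose 6.37-fold (adjusted p = 0.0158). ISG15, a ubiquitin-like modifier, rose 2.31-fold (adjusted p = 0.0392). TLR3, the endosomal sensor of double-stranded RNA, fell to 20.9% of control (adjusted p = 0.0489, 0.0791 without the siUHRF1-1 array). Of 22 genes of MHC class I presentation 0 were higher and 3 lower, the immunoproteasome subunits PSMB8 and PSMB10 and the peptide trimmer ERAP2. Without the siUHRF1-1 combination array 3 interferon genes were higher and 0 lower and 0 MHC genes were lower, and without the siUHRF1-2 array the counts were 4, 1 and 1.

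Genes of the colonic epithelium moved in both directions as well. Of 23 tested colonocyte genes 4 were higher and 6 lower. GPA33, an intestinal surface antigen, read 2.93 and 3.02 in the control, 3.55 and 3.63 with siUHRF1 alone, −2.28 and −2.75 with TSA alone, and −1.72 and −0.64 in the combination (5.6% of control, adjusted p = 0.0103). LGALS4, a galectin of enterocytes, read 1.87 and 2.05 in the control, 5.04 and 5.09 with siUHRF1 alone, −1.63 and −1.59 with TSA alone, and 0.08 and −0.07 in the combination. It was 25.7% of control (adjusted p = 0.0129) and lower than with UHRF1 depletion alone by 5.07 on the log2 scale (adjusted p = 0.00219), the single treatments lying on opposite sides of the control. ESPN, an actin bundler of microvilli, and CA2, carbonic anhydrase of surface colonocytes, rose, by at least 7.45-fold and by 4.0-fold. Without either combination array 2 colonocyte genes were higher, and 4 were lower without the siUHRF1-1 and 5 without the siUHRF1-2 array.

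Among 19 goblet and secretory genes 4 were higher and 4 lower, and 2 and 3 without the siUHRF1-1 array. TFF1 and TFF3, trefoil peptides secreted with mucus, fell to 10.6% and 17.2% of control (adjusted p = 0.0107 and 0.0117). TFF3 read 7.77 and 7.78 in the control, 8.13 and 8.65 with siUHRF1 alone, 4.96 and 4.95 with TSA alone, and 5.20 and 5.28 in the combination. The secreted mucin MUC5AC fell to 16% (adjusted p = 0.0154). SPINK4, a goblet cell protease inhibitor, rose 9.23-fold (adjusted p = 0.0127). MUC2, the main intestinal mucin, is unsettled, since its brighter probe rose by 2.05 on the log2 scale and its other probe changed by −0.22. Of 19 Wnt targets and crypt stem genes 0 were higher and 3 lower, ASCL2, EPHB2 and CDCA7, and these 3 calls were lost without either combination array.

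Genes of the chromatin machinery were listed by complex. Of 33 Polycomb and H3K9 methylation genes 1 was higher and 5 lower, and 2 and 1 were lower without the siUHRF1-1 and the siUHRF1-2 combination array. CBX5, the heterochromatin protein HP1 alpha, read 2.96 and 3.01 in the control and 0.11 and 0.78 in the combination (17.2% of control, adjusted p = 0.0162). SUV39H1, an H3K9 methyltransferase, fell to 22.1% (adjusted p = 0.0169, 0.0518 without the siUHRF1-2 array), and BMI1, a Polycomb subunit, rose 3.51-fold (adjusted p = 0.0254). Of 17 histone deacetylases SIRT2, which TSA does not target, rose 4.32-fold (adjusted p = 0.0152), and HDAC7 and HDAC10 fell to 39.4% and 35.7%. The falls of both HDACs and the rise of BMI1 were lost without either combination array.

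Several large housekeeping groups gave no calls. Of 53 cytosolic ribosomal proteins, 36 subunits of respiratory complex I and 31 proteasome subunits 0 were called in either direction, and their median changes were −0.29, −0.27 and −0.32 against −0.21 over all genes. Of 40 ribosome biogenesis genes 1 was lower, UTP15, with a median of −0.62, and that call was lost without either combination array (adjusted p = 0.0863 and 0.0777). Of 34 apoptosis regulators 1 was higher and 2 lower. BBC3, the p53 target PUMA, fell to 25.3% of control (adjusted p = 0.0318), and BMF, a BH3-only protein, rose 2.11-fold (adjusted p = 0.0492). The call of BMF was lost without either combination array (adjusted p = 0.184 and 0.168) and that of BBC3 without the siUHRF1-2 array (adjusted p = 0.0876), where 0 apoptosis genes were called. In the integrated stress response 1 of 21 was called, NUPR1, which read 2.13 and 2.18 in the control, 3.85 and 3.58 with siUHRF1 alone, and 0.28 and −0.36 in the combination (21.9% of control, adjusted p = 0.0215, 0.0547 without the siUHRF1-2 array). Without either array of UHRF1 depletion alone 4 genes of that list were lower and 1 higher. The median of that list was 0.85 with TSA alone and −0.16 in the combination, and the latter changed sign with the scaling. Of 35 lysosomal genes 6 were higher and 1 lower, and fewer were higher without either combination array. Across the scalings and the normexp background the number higher ran from 1 to 10. The median of the lysosomal genes on all 4 arrays changed sign with these settings, from −0.10 to 0.58. Of 19 tubulins 8 were lower, TUBA4A most (20.6% of control, adjusted p = 0.0115), and 2 higher, among them the neuronal TUBB3 (2.63-fold, adjusted p = 0.0323). Without either combination array 1 tubulin was called lower.

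The combination was then set against each single treatment. Against TSA alone 165 of 23844 probes were called (0.692%), 161 of them higher, and 2228 passed an unadjusted p under 0.05 with at least a 2-fold change, 733 of them lower. Against UHRF1 depletion alone 4210 of 23912 were called (17.6%). The first count depended on single arrays and on the fit: it was 0 without the siUHRF1-1 combination array, 5 without the siUHRF1-2 array, 466 and 472 without either array of UHRF1 depletion alone, and 1970 with the siCONT arrays as separate samples. Without the siUHRF1-1 or the siUHRF1-2 combination array the second count was 2102 and 2506. The interaction of the treatments gave 0 calls, with 2118 probes at an unadjusted p under 0.05 and at least 2-fold. In the 5 cell cycle lists of cyclins and kinases, kinesins, kinetochore, licensing and fork genes 0 members were called against TSA alone, and between 14 and 20 of each list against UHRF1 depletion alone.

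Medians over the lists show how far each array had moved. For the 24 cyclins and kinases the median difference from control was −2.58 with siUHRF1-1 and −2.36 with siUHRF1-2 in the combination, −0.79 and −0.73 with TSA alone, and −0.23 and −0.97 with siUHRF1-1 and siUHRF1-2 alone. For the 21 sterol genes it was −1.62 and −1.57 in the combination and −1.59 and −1.51 with TSA alone. For the 17 colonocyte genes on all 4 arrays it was −1.41 and −0.84 in the combination, −0.59 and −0.57 with TSA alone, and 0.62 and 0.68 with siUHRF1 alone. The comparisons share the control arrays, and these values are descriptions.

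**Figure D4:**
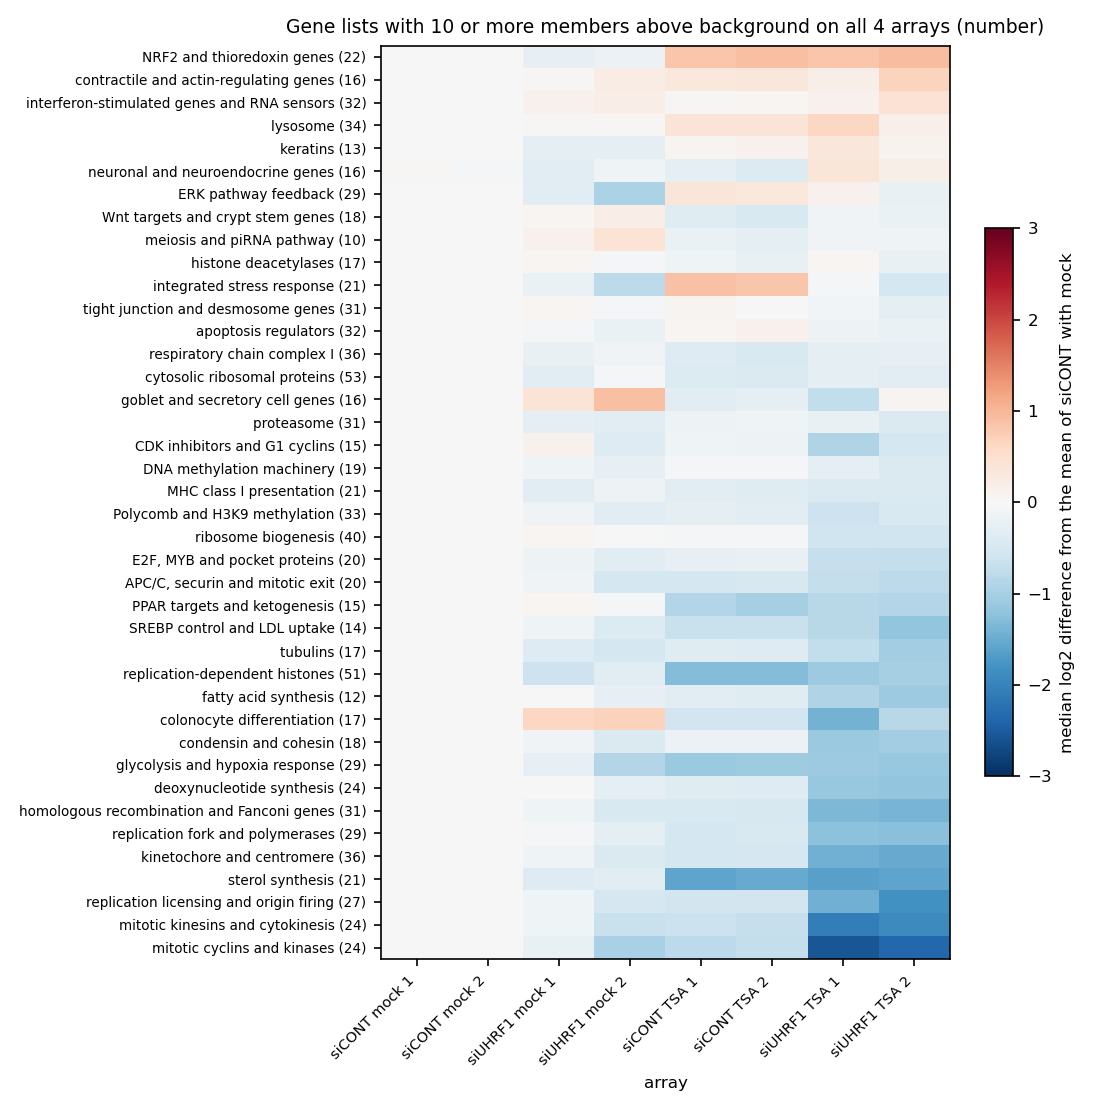
Median difference (log2, colour) of each gene list from the mean of siCONT with mock, on each of the 8 arrays (columns), over the members above background on all 4 arrays compared (number in brackets). Lists are ordered by their median over the combination arrays. The bottom rows, mitotic cyclins and kinases and mitotic kinesins, are darkest blue in the combination, while sterol synthesis is blue both in the combination (−1.62 and −1.57) and with TSA alone (−1.59 and −1.51).

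Sequence features of promoters were counted for the 12015 genes with 1 promoter in the RefSeq table and a probe. A promoter was taken as CpG island-like if its 300-base window had at least 50% G and C and an observed over expected CpG ratio of at least 0.6. Such windows made up 81.4% of 6712 genes tested and not called (95% Wilson interval 80.4% to 82.3%) and 82.5% of 537 genes called lower (79.1% to 85.5%). They made up 56.3% of 721 genes called higher (52.7% to 59.9%), namely 44.4% of the 396 lit genes and 70.8% of the 325 that were not lit. Among 4045 genes below background in both groups the share was 33.8% (32.4% to 35.3%), and over all promoters it was 45.2%. The lit genes thus lay between the silent genes and the genes measured in the control.

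The CHR element was present in 20.3% of promoters of genes called lower (17.1% to 23.9%), in 10.4% of those called higher (8.38% to 12.8%) and in 8.70% of those not called (8.05% to 9.40%). Among genes below background in both groups it was 17.8% (16.7% to 19%), which overlaps the interval of the genes called lower. The E2F site was present in 6.15% of genes called lower (4.41% to 8.51%), 0.555% of genes called higher (0.216% to 1.42%) and 3.1% of genes not called (2.71% to 3.54%). For both motifs the interval of the genes called lower lay above that of the genes not called. The intervals cover counting error only, and genes are not independent replicates.

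**Figure D5:**
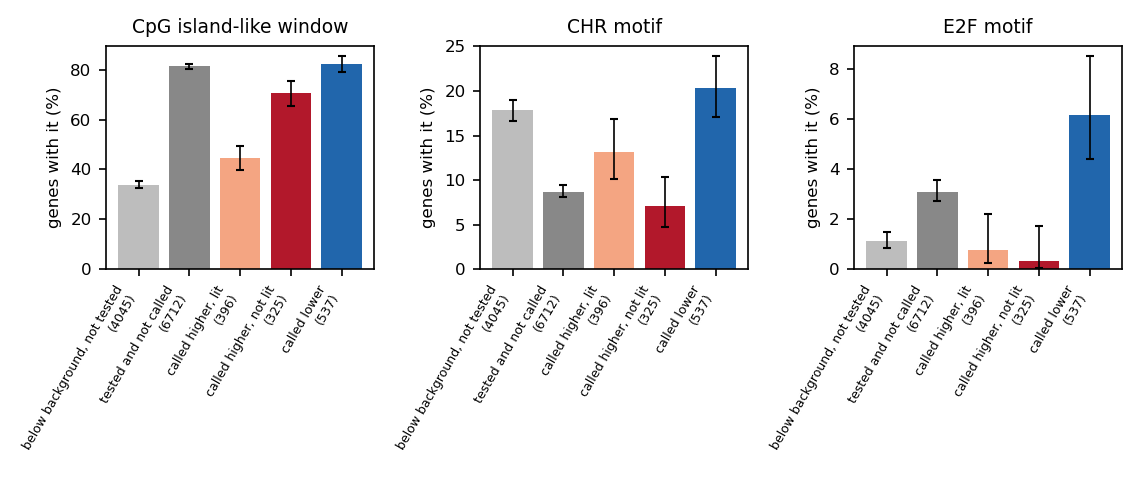
Share of genes (%, vertical axes from 0) whose promoter window was CpG island-like, held the CHR motif or held the E2F motif, in 5 classes of genes (number in brackets). Bars are shares and whiskers 95% Wilson intervals. CpG island-like windows were rarer among lit genes (44.4%) than among genes not called (81.4%), and both motifs were most frequent, among the tested classes, in genes called lower.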

How the data were processed

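The authors hybridised Cy3-labelled RNA to 1-colour Agilent arrays and read them with Agilent Feature Extraction 10.7, per the file headers. The deposited intensity used here was the processed signal, already corrected for background. Control spots were left out, spots of a probe were averaged, and levels were log2 intensity minus the 75th percentile of the array, computed from the deposited values. The deposited log2 table of the series was an alternative. Probes were named from the transcript accessions through RefSeq (55.68% of probes) or from the file. limma 3.58.1 (R 4.3.3) fitted 4 group means to 6 samples and 24589 probes, with the siCONT arrays of an agent averaged, and was tested on simulated data. A probe was tested if well above background on both arrays of either group. A dim probe has a bound, "at least N-fold", taken against the lowest signal well above background.

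The text names, per direction, the 12 largest changes above background on all 4 arrays and the 10 largest lit or extinguished bounds, up to 5 called members a list, the silenced and CIMP genes, and UHRF1. Some genes that this rule picks are not reported here. Other members were named after their values were seen. The members and lists were chosen with earlier results of these data known. Alternatives are in the closing section.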

Additional observations from a re-analysis of the deposited data

How the results depend on the processing

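The number of probes called between the combination and the control, 3662, was 6077 with the siCONT arrays as separate samples, 6131 with the replicate number as a block in that fit, 6026 with only the 4 arrays compared, 2365 with the normexp background, 1863 with no filter on dim probes and 1874 by the methods' t-test with the siCONT arrays averaged. It lay between 1855 and 4722 when 1 array was left out. The replicate block (6131) changed that count little against the same fit without it (6077). The methods' t-test at its own threshold called 5078 probes, and 2714 after Benjamini-Hochberg adjustment. The number of list genes called, 341, was 177 with no filter, 175 by the t-test with the siCONT arrays averaged, and between 150 and 414 when 1 array was left out. Of 44 genes named by size of change, 23 were among the probes above background on all arrays and called, and 17 were called by that t-test. UHRF1 was lower under every alternative, between −4.13 and −3.55 when 1 array was left out. By the t-test with the siCONT arrays averaged it missed the threshold, which was set on the unadjusted p (log2 change −3.84). CDKN2A, which was not called, changed sign under median scaling (log2 change −0.082).

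The alternatives for the single treatments were chosen after seeing the data. Against TSA alone, 165 calls became 1970 with the siCONT arrays as separate samples, 1915 with the replicate block, 49 with the normexp background, 2 under median scaling, 2 under quantile normalization, 2 with no filter and 0 among probes above background on all arrays, and lay between 0 and 472 when 1 array was left out. For that 0, 2228 probes passed an unadjusted p under 0.05 and 2-fold in the fit reported. Against UHRF1 depletion alone, 4210 calls became 2307 with the normexp background and lay between 2102 and 4382 when 1 array was left out. A fit without 1 combination array leaves a lone array, which was assumed to vary like the other groups. The number of arrays limits the precision, and below background only bounds could be given.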

Other observations

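The calls differed by transcript class and by level. Of 12941 protein-coding genes tested 9.22% were higher and 6.64% lower, of 633 long noncoding RNAs 20.7% and 2.69%, and of 1351 intergenic transcripts of the XLOC class 18.7% and 2.89%. Genes above background in the control were also split by control level into 5 classes of about equal size. Of the 3186 with the lowest levels 308 were higher and 83 lower, and of the 3185 with the highest levels 35 were higher and 341 lower. The control arrays enter both the level and the change, and the part of this in the counts was not tested. Chromosome X had 13.3% higher and 4.48% lower, and chromosome 17 had 8.82% and 9.11%.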
